A study of Homo sapiens with 4 samples.

Results

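The non-coding snoRNA host genes *GAS5*, *SNHG1*, *SNHG5*, *SNHG6*, *SNHG7*, *SNHG8*, *SNHG12*, *SNHG15*, *SNHG16* and *ZFAS1* were examined after circZFR silencing. These 10 genes were taken by name from the 40205 genes listed for each library, and all 10 were found and tested. RNA-seq had been performed on human lung cancer cells 24 h after transfection. A negative control was used for 2 libraries, named NC 1 and NC 2, and siRNA against circZFR for the other 2, named si-circZFR 1 and si-circZFR 2. circZFR is a circular RNA made from exons of *ZFR*, and the comparison asked how the transcriptome changed after its loss. Nothing in the labels says whether the 2 libraries of a group came from separate cultures, so the p-values measure the spread between these samples, which may be technical.

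Small nucleolar RNAs (snoRNAs) guide chemical modification of ribosomal RNA. Box C/D snoRNAs direct 2′-O-methylation and box H/ACA snoRNAs direct pseudouridylation, and most human snoRNAs are cut from introns of a host transcript. In the 10 host genes the introns carry the snoRNAs, whereas the spliced exons form a long non-coding RNA without a conserved protein. Several such spliced RNAs are bound by ribosomes and degraded by nonsense-mediated decay (NMD). Many snoRNA hosts begin with a 5′ terminal oligopyrimidine (TOP) tract, a cytidine followed by an unbroken run of pyrimidines, which they share with the mRNAs of ribosomal proteins and elongation factors. The TOP tract ties translation and stability of these RNAs to the growth kinase complex mTORC1 and to the RNA-binding protein LARP1.

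To show which of the hosts carry such a tract, the first bases of the transcripts were read from RefSeq (GRCh38.p14). Each line below gives 30 bases of the transcribed strand, 10 before and 20 from the annotated start onwards, with the longest run of C and T in capitals. Each line lies across the start of the first exon of the transcript used, and *SNHG12* and *ZFAS1* have further transcripts that begin upstream. Sequences for *SNHG6* and *SNHG15* are not shown.
*SNHG5* (chr6:85678714-85678743, minus strand): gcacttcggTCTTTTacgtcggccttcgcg
*ZFAS1* (chr20:49278632-49278661, plus strand): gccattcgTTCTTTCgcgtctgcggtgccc
*SNHG12* (chr1:28581854-28581883, minus strand): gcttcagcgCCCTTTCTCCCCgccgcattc
*SNHG16* (chr17:76557754-76557783, plus strand): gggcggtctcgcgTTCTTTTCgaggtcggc
*SNHG1* (chr11:62855866-62855895, minus strand): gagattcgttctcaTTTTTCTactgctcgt
*SNHG8* (chr4:118278752-118278781, plus strand): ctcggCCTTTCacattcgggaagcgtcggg
*SNHG7* (chr9:136728165-136728194, minus strand): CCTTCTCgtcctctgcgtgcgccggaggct
*GAS5* (chr1:173869026-173869055, minus strand): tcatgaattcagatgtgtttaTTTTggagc
For *GAS5*, which begins with A at the annotated start, the next 30 bases, from position 21, are shown as well, because a run of 8 pyrimidines lies at positions 32 to 39.
*GAS5*, continued (chr1:173868996-173869025, minus strand): ctacaccagcgCCTTTTTTgtttgctcttt
A TOP tract was counted when the annotated first base was C and at least 5 pyrimidines in a row began there. By this count 3 of the 8 hosts shown had one, *SNHG5* with 5 bases, *ZFAS1* with 5 and *SNHG12* with 11. The share was 68.3% of 63 ribosomal protein genes and 4.04% of all 27305 RefSeq starts. Of the other 5 hosts, *SNHG1*, *SNHG7* and *SNHG8* also began with C but with a run of 3, 4 and 1 pyrimidines, and *SNHG16* began with G, with a run of 8 pyrimidines at positions 4 to 11. Annotated starts can lie some bases away from the start used in a cell line, and no start was measured here.

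The 4 libraries held 11040050 to 12816868 reads, recovered from the RPKM values (reads per kilobase of gene, relative to all mapped reads). Scaled RPKM is RPKM divided by a factor for each library, log2FC is the difference of the group means of log2(scaled RPKM + 1), si-circZFR minus NC, and FDR is the Benjamini-Hochberg adjusted p over all genes tested by limma. *ZFR*, the gene that circZFR is made from, had scaled RPKM of 25.7 and 32.6 in NC and 5.22 and 4.60 in si-circZFR. The log2FC was -2.34 with a standard error of 0.18 (limma FDR = 0.0473). Over the whole gene, 4715 bases long by the RPKM values, the mean scaled RPKM was 83.2% lower in si-circZFR than in NC. The values do not separate the circle from linear *ZFR*. The paper describes no detectable effect of its siRNA on *ZFR* expression in the cell lines it examined. Whether linear *ZFR* fell in these libraries was not tested, and neither was its part in the results on the hosts. The study design names A549 cells and the sample labels H1299. *CDKN2A*, which is deleted in A549, had 0 reads in all 4 libraries, where a count of 0 allows up to 3 reads. This value alone does not settle which line was used. The epithelial keratin gene *KRT18* had 21396 to 30031 reads, and the leukocyte marker *PTPRC* had 0. Of 14 cell markers 11 were tested, with a median log2FC of 0.48, and 5 of them were higher at an unadjusted p under 0.05 (9.56% of all genes). These were *CDH1* (1.03), *EPCAM* (1.19, on 4 to 28 reads), *KRT19* (0.69), *FGB* (0.65) and the fibroblast marker *COL1A1* (0.57, on 42 to 137 reads), and none passed FDR < 0.05. Their part in the results on the hosts was not tested. NC 2 stood apart from NC 1 in a way that followed gene length. Spearman's rho between the NC 2 minus NC 1 difference and gene length was -0.342 across the 13885 genes tested. For the difference between the si-circZFR libraries it was 0.0222. The log2FC between the groups also followed gene length, with a rho of 0.294 across the same genes. The 10 hosts have a median length of 1011 bases, as implied by the RPKM values, against 2723 bases for all genes tested, so values without NC 2 and with a correction for gene length are given beside the results.

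The hosts took up fewer of the reads in both si-circZFR libraries than in either NC library. Together they received 3028 reads in NC 1, 4004 in NC 2, 1933 in si-circZFR 1 and 2406 in si-circZFR 2, or 255.8, 353.3, 167.4 and 195.5 scaled CPM (counts relative to library size, divided by the same factors). The excess in NC 2 lay largely in *SNHG5*, which held 35.3% of the host reads there and 17.4% to 18.2% in the other 3 libraries. In bulk RNA, fewer cells that express a gene and less of its RNA per cell cannot be told apart.

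**Figure D1:**
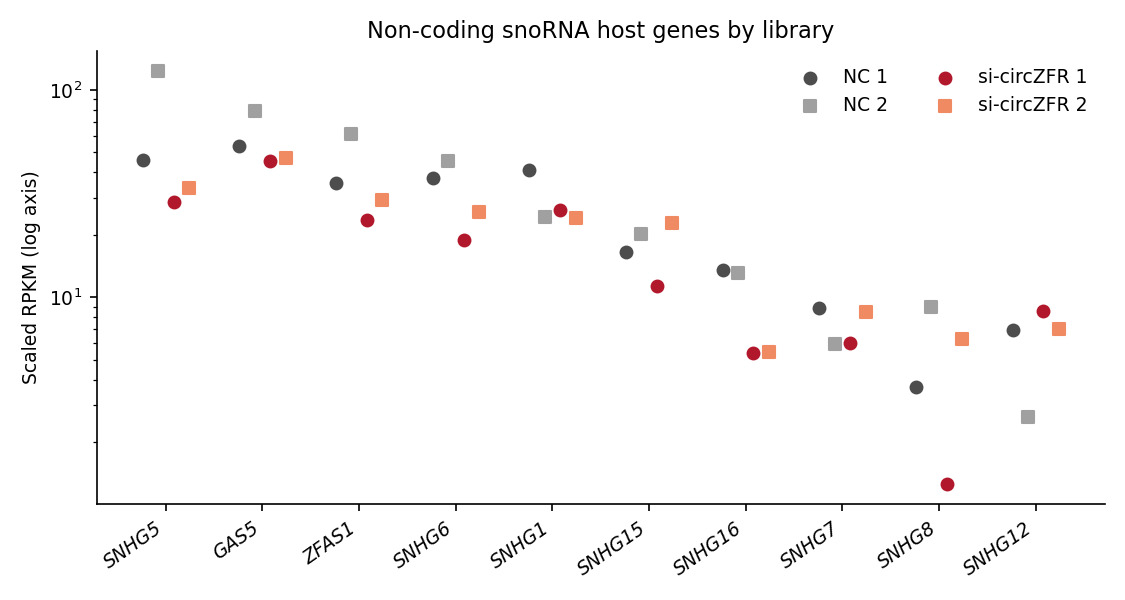
Scaled RPKM of the 10 host genes (log axis) in each library, ordered by the mean of the NC libraries. The si-circZFR points of *SNHG16* lie together at 5.38 and 5.41 below both NC points at 13.5 and 13.1, whereas the NC points of *SNHG5*, *SNHG8* and *SNHG12* are far apart.

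Of the 10 hosts, 9 had a log2FC below 0 (50.9% of all genes tested did) and none passed FDR < 0.05 and |log2FC| > 1 by limma (8 of 13885 genes did, 0.0576%, and 0.0288% passed in the lower direction). A log2FC below -1 was found for *SNHG5* and *SNHG16*, 2 of the 10 (2.75% of all genes). The median log2FC was -0.62, against -0.01 over all genes tested. At an unadjusted p under 0.05, 4 of the 10 were lower (11.8% of all genes) and 0 were higher (9.56%). Under limma-voom, which weights log counts by their precision, on the recovered reads, 1 host passed (2.06% of all genes), and under a filter of 1 CPM 1 host passed (0.989% of all genes), which was *SNHG16* in both cases. In 5 hosts both si-circZFR libraries lay below both NC libraries (28.8% of all genes), in 1 they lay above (27.1%), and in the other 4 the groups overlapped. The median depended on the libraries. It was -0.36 without NC 2, -0.90 without NC 1, -0.42 without si-circZFR 1 and -0.80 without si-circZFR 2, and it was -0.20 after the correction for gene length. For 7 of the 10 hosts, the difference between NC 2 and NC 1 was larger in size than the log2FC, as for 49.2% of all genes and 29 of the 79 ribosomal protein genes.

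*SNHG16*, the host of the box C/D snoRNAs *SNORD1A*, *SNORD1B* and *SNORD1C* on chromosome 17, gave the smallest p of the hosts and ranked 54 of all genes by p. Its scaled RPKM was 13.5 in NC 1, 13.1 in NC 2, 5.38 in si-circZFR 1 and 5.41 in si-circZFR 2, resting on 360, 335, 140 and 150 reads. The libraries of each group lay close together and the groups did not overlap. The 140 and 150 reads have 95% Poisson intervals of 118 to 165 and 127 to 176 reads, far wider than the gap between them. The SDs that follow therefore understate the counting error, and the p rests in part on this closeness. The means were 13.3 ± 0.266 and 5.39 ± 0.0215 (SD, n = 2 each), which is 59.5% lower after silencing, with a log2FC of -1.16 ± 0.15 (standard error, 95% interval -1.53 to -0.79, limma FDR = 0.0695). The 4 possible pairs of 1 si-circZFR and 1 NC library differed by -1.18 to -1.14 on this scale. Limma-voom on the recovered reads gave -1.30 (FDR = 0.0266), and the correction for gene length gave -1.12 (FDR = 0.0590 by limma). *SNHG16* is 2255 bases long by the RPKM values, more than the other 9 hosts, and NC 2 and NC 1 differed by -0.04 for it.

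*SNHG5*, *SNHG6* and *ZFAS1* had values below those of NC in both si-circZFR libraries, but with NC libraries that differed from each other. *SNHG5*, the host of the U50 snoRNAs, had scaled RPKM of 45.99 in NC 1, 122.9 in NC 2, 28.7 in si-circZFR 1 and 33.7 in si-circZFR 2. NC 2 was far above the other 3 libraries, and NC 1 was also above both si-circZFR libraries. The means were 84.4 ± 54.4 and 31.2 ± 3.51 (SD, n = 2 each), and the log2FC was -1.25 (standard error 0.44, FDR = 0.195 by limma), or -0.56 without NC 2. *ZFAS1*, an RNA antisense to the start of *ZNFX1* that hosts the *SNORD12* family, had 35.7 and 61.5 in NC and 23.5 and 29.3 in si-circZFR. Its log2FC was -0.81 (standard error 0.29, FDR = 0.193 by limma) and -0.44 without NC 2. *SNHG6*, the host of the box C/D snoRNA *SNORD87*, had 37.4 and 45.6 in NC and 18.9 and 25.8 in si-circZFR. Here the gap between the groups was larger than that within either group, the log2FC was -0.87 (standard error 0.22, FDR = 0.121 by limma), and it was -0.74 without NC 2 and -0.40 after the correction for gene length. At 472 bases *SNHG6* is the shortest of the 10 by the RPKM values.

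*GAS5*, named as a transcript that accumulates in growth-arrested cells, hosts 10 box C/D snoRNAs. Its scaled RPKM was 53.7 in NC 1, 79.0 in NC 2, 45.2 in si-circZFR 1 and 46.7 in si-circZFR 2. The si-circZFR libraries were close together and below both NC libraries, and the log2FC of -0.50 (standard error 0.23, FDR = 0.277 by limma) was -0.23 without NC 2 and -0.07 after the correction for gene length. *SNHG1*, the host of U22 and 7 further box C/D snoRNAs, had 41.2, 24.4, 26.3 and 24.1 in the same order. NC 1 was high and NC 2 lay between the si-circZFR libraries, so the groups overlapped, with a log2FC of -0.32 ± 0.27 (standard error, limma FDR = 0.512). It was 0.04 without NC 1, -0.69 without NC 2 and -0.07 after the correction for gene length.

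In the other 3 hosts of box H/ACA snoRNAs the groups overlapped, with log2FC values below 0 and wide intervals. *SNHG7* had 8.85 and 5.92 in NC and 6.01 and 8.44 in si-circZFR, and its log2FC of -0.02 had a 95% interval from -0.63 to 0.58. *SNHG15*, the host of *SNORA9*, had 16.5 and 20.1 in NC and 11.3 and 22.9 in si-circZFR, so that the si-circZFR libraries enclosed the NC libraries. Its log2FC was -0.17 with a 95% interval from -0.97 to 0.64. *SNHG8*, the host of *SNORA24*, rested on 27, 63, 9 and 48 reads, the fewest of the 10 genes in 3 of the 4 libraries. The 9 reads of si-circZFR 1 have a 95% Poisson interval of 4.12 to 17.1 reads, which covers counting error alone, and the log2FC of -0.75 had a 95% interval from -2.25 to 0.75. It was -0.21 without NC 2 and -0.32 after the correction for gene length.

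*SNHG12*, which hosts *SNORA16A*, *SNORA44*, *SNORA61* and *SNORD99*, was the host with a log2FC above 0. Its scaled RPKM was 6.97 in NC 1, 2.63 in NC 2, 8.55 in si-circZFR 1 and 7.04 in si-circZFR 2. NC 2 was low, with 44 reads against 122 to 146 in the other 3 libraries, and NC 1 lay just under si-circZFR 2. The log2FC was 0.70 (standard error 0.37, FDR = 0.325 by limma) and 0.13 without NC 2. When NC 1 was left out instead, *SNHG5* (log2FC -1.96), *ZFAS1* (-1.20), *SNHG16* (-1.15) and *SNHG12* (1.27) passed, 4 of the 10 hosts against 7.17% of all genes in the same fit, and of these *SNHG16* kept a log2FC beyond -1 without NC 2, at -1.19 (FDR = 0.147 by limma).

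**Figure D2:**
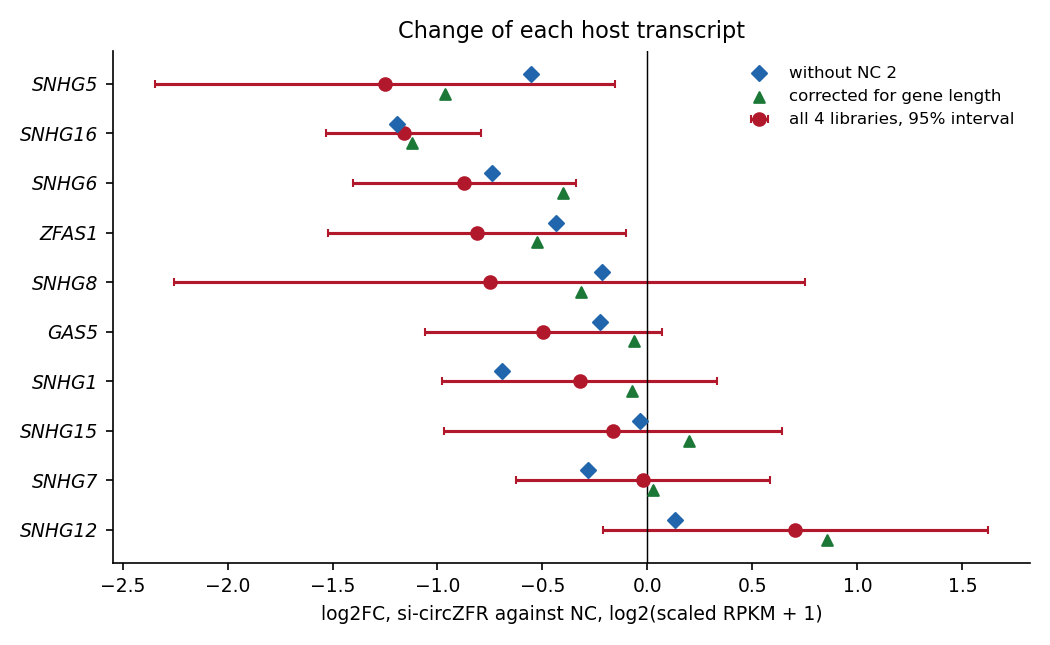
log2FC of each host (circles, with 95% intervals), without NC 2 (diamonds) and after the correction for gene length (triangles). *SNHG16* stays between -1.19 and -1.12 in all 3, whereas *SNHG5* moves from -1.25 to -0.56 without NC 2.

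To set the hosts beside transcripts in which a TOP start is common, ribosomal protein genes and other TOP mRNAs were described in the same fit. Most of the hosts shown above lack such a start by the count used here. The 79 ribosomal protein genes had a median log2FC of -0.82, with 78 below 0 and 45 lower at an unadjusted p under 0.05 (11.8% of all genes). Both si-circZFR libraries lay below both NC libraries in 87.3% of them, against 28.8% of all genes and 5 of the 10 hosts. Their smallest p belonged to *RPL39*, with a log2FC of -1.91 ± 0.19 (standard error, limma FDR = 0.0654), *RPL9*, at -1.17 (FDR = 0.0813 by limma), and *RPL27A*, at -0.99 (FDR = 0.0845 by limma). All 16 of the other TOP mRNAs had a log2FC below 0, with a median of -0.55 and 5 lower at an unadjusted p under 0.05. The elongation factor gene *EEF1B2*, itself a host of snoRNAs, had a log2FC of -0.91 (FDR = 0.0978 by limma), *HNRNPA1* had -0.53 (FDR = 0.151 by limma) and *NACA* had -0.66 (FDR = 0.153 by limma). None of these genes passed FDR < 0.05 and |log2FC| > 1. The median of the ribosomal proteins was -0.50 without NC 2 and -0.56 after the correction for gene length, and that of the other TOP mRNAs was -0.30 and -0.47. Between the control libraries, NC 2 was above NC 1 in 73 of 79 ribosomal protein genes (median difference 0.66) and in 6 of the 10 hosts (median 0.27).

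**Figure D3:**
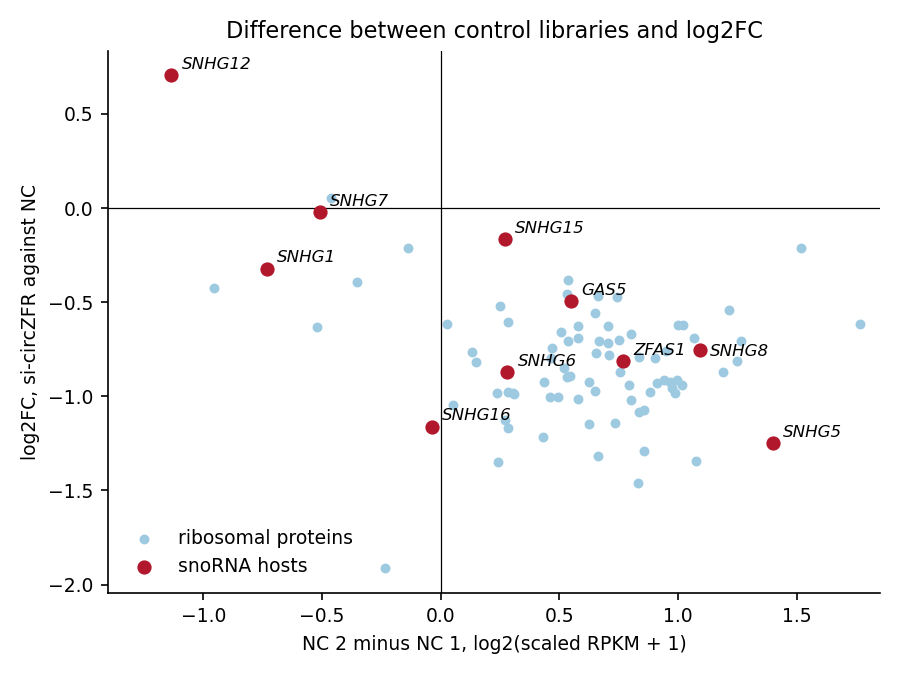
log2FC of the hosts (labelled) and the 79 ribosomal protein genes against the difference between NC 2 and NC 1, both on the log2(scaled RPKM + 1) scale. Both axes contain NC 2, so a downward slope is built in. Most ribosomal protein genes lie at the lower right, while *SNHG16* lies at -1.16 with an NC difference of -0.04, and *SNHG12* lies at the upper left.

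Within the hosts, the 3 with a TOP tract at the annotated start, *SNHG5*, *ZFAS1* and *SNHG12*, had log2FC values of -1.25, -0.81 and 0.70. Across the genes tested that matched a RefSeq start by symbol, the median log2FC was -0.12 for 501 genes with a tract at the start and 0.02 for 8258 without one. With the ribosomal protein genes left out, the 458 others with a tract had a median of -0.07, and 56.1% of them had a log2FC below 0, against 47.9% of the genes without a tract.

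Among other non-coding snoRNA hosts the values were mixed. Of 12 further hosts, 9 were listed and 7 were tested, with a median log2FC of -0.24, 4 below 0 and 3 above. The median was -0.17 without NC 2 and -0.03 after the correction for gene length. *DANCR*, the host of *SNORA26*, had scaled RPKM of 16.5 and 25.2 in NC and 14.2 and 12.7 in si-circZFR, with a log2FC of -0.57 (FDR = 0.234 by limma). *EPB41L4A-AS1*, the host of *SNORA13*, had 5.45 and 5.10 in NC and 3.99 and 3.20 in si-circZFR, with a log2FC of -0.45 (FDR = 0.214 by limma). *SNHG11* was higher in both si-circZFR libraries, with 5.83 and 4.87 in NC, 7.25 and 8.52 in si-circZFR and a log2FC of 0.49 (FDR = 0.197 by limma). All 10 hosts carry the gene type miscRNA in the deposited files. Of the 780 genes tested of this type, 31.7% had a log2FC below 0, the median was 0.20, and 15.1% had both si-circZFR libraries below both NC libraries. The median of this class was 0.07 without NC 2 and 0.32 after the correction for gene length.

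The protein-coding snoRNA hosts, 24 genes such as *NCL*, *HSPA8* and *GNL3*, had a median log2FC of -0.16, with 16 below 0. At an unadjusted p under 0.05, 4 of them were lower (11.8% of all genes). Their median was -0.09 without NC 2 and -0.11 after the correction for gene length. The smallest p after *EEF1B2* belonged to *WDR43*, at -0.49 (FDR = 0.209 by limma), and to *NOP56*, at -0.47 (FDR = 0.220 by limma). NOP56 is also a core protein of box C/D snoRNPs. The proteins that bind mature snoRNAs were encoded by genes with a median log2FC of -0.46, with 7 of 8 below 0. *NHP2L1*, whose protein binds the kink-turn of box C/D snoRNAs, had a log2FC of -0.70 (FDR = 0.162 by limma), and *NOP10*, a component of box H/ACA particles, had -0.70 (FDR = 0.191 by limma). The snoRNP list had an NC 2 minus NC 1 difference of 0.34 (median) and a median log2FC of -0.39 without NC 2 and -0.27 after the correction for gene length.

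Because spliced host RNAs are turned over by NMD and TOP RNAs answer to mTORC1, the genes of both systems were described as well. The 14 NMD factors had a median log2FC of 0.23, with 5 below 0 and 9 above. Their smallest p belonged to *UPF3A*, at 0.85 (FDR = 0.182 by limma), with 7.29 and 3.73 scaled RPKM in NC and 9.32 and 11.4 in si-circZFR. *EIF4A3*, of the exon junction complex, had -0.39 (FDR = 0.261 by limma), and the helicase gene *UPF1* had 0.33 (FDR = 0.326 by limma). The median of the list was -0.01 without NC 2 and 0.14 after the correction for gene length. Of 14 genes for mTORC1 components and TOP regulators, 13 were tested, with a median of -0.10 (-0.18 without NC 2) and 10 below 0. *EIF4EBP2*, which encodes a translational repressor inhibited by mTORC1, had -0.46 (FDR = 0.191 by limma), *RPS6KB1* had -0.32 (FDR = 0.277 by limma) and *LARP1* had 0.37 (FDR = 0.288 by limma).

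**Figure D4:**
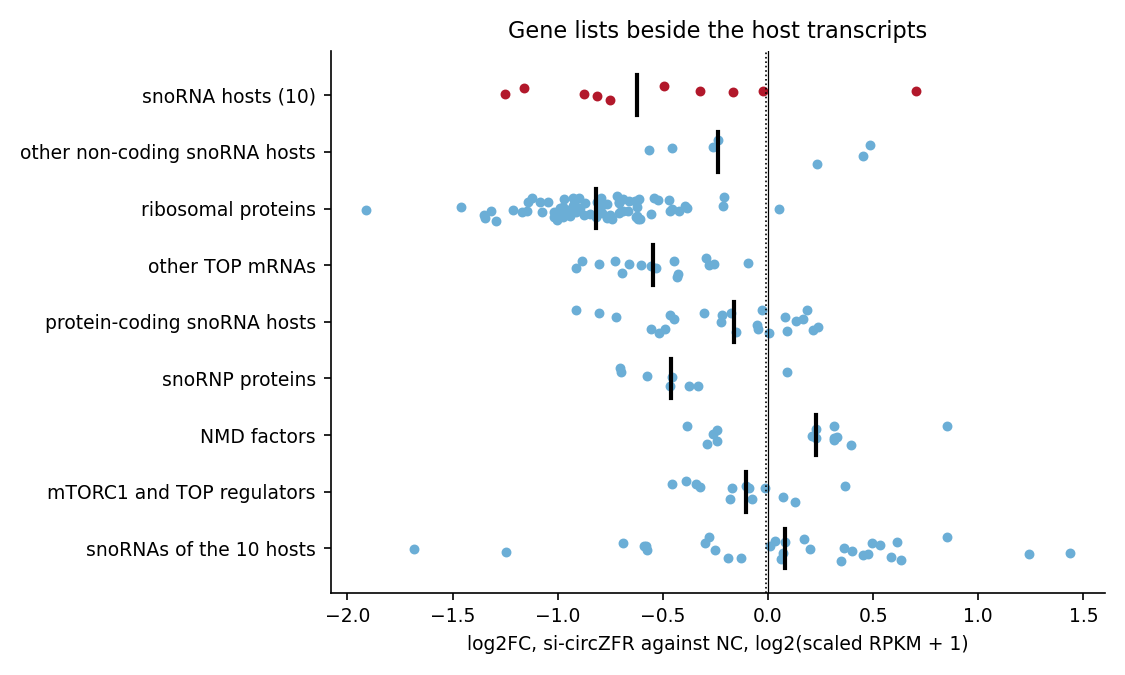
log2FC of the tested genes of each list (points) with the median of the list (bar), the 10 hosts in red. The dotted line marks the median of all genes tested (-0.01), and the solid line marks 0. The hosts (median -0.62) stand beside the ribosomal proteins (-0.82) and the other TOP mRNAs (-0.55), while the snoRNAs cut from the host introns have a median of 0.08. After the correction for gene length these medians are -0.20, -0.56, -0.47 and -0.10.

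The snoRNAs encoded in the introns of the 10 hosts had a median log2FC of 0.08, which was -0.19 without NC 2 and -0.10 after the correction for gene length. Of 35 such snoRNAs, 34 had reads, and together they received 332 reads in NC 1, 225 in NC 2, 257 in si-circZFR 1 and 333 in si-circZFR 2, or 28.0, 19.9, 22.3 and 27.1 scaled CPM. The groups overlapped, and NC 2, which was highest for the host exons, was lowest here. Reads on a snoRNA can come from the mature RNA or an unspliced host, and in GENCODE most of the hosts also have exons that overlap their own snoRNAs. The files do not separate these. Of 31 snoRNAs tested, 11 had a log2FC below 0 (50.9% of all genes did) and 20 above. At an unadjusted p under 0.05, 2 were lower (11.8% of all genes) and 3 higher (9.56%). The 10 snoRNAs of *GAS5* summed to 133, 110, 106 and 116 reads, and the 8 of *SNHG1* to 106, 72, 100 and 130.

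Single snoRNAs rested on few reads, at most 46 in any library, and 5 had at least 10 reads in every library. For *SNORD80* of *GAS5* there were 23 and 46 reads in NC and 21 and 20 in si-circZFR (log2FC -0.69, FDR = 0.305 by limma). *SNORD76* and *SNORD81*, also of *GAS5*, had log2FC values of -0.19 and -0.13. *SNORD25* and *SNORD31* of *SNHG1* had 0.36 and 0.53, and *SNORD31* had 18 reads in each NC library and 32 and 23 in the si-circZFR libraries. The smallest p of the list belonged to *SNORD30* of *SNHG1*, with 2, 2, 6 and 6 reads (log2FC 1.24, FDR = 0.0695 by limma), to *SNORD1B* of *SNHG16*, with 9, 5, 2 and 1 (-1.68, FDR = 0.0848 by limma), and to *SNORA44* of *SNHG12*, with 1, 2, 5 and 9 (1.43, FDR = 0.0957 by limma). These counts are too low to follow a single snoRNA with its host.

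The exons of 7 of the 10 hosts overlap an exon of a gene on the opposite strand in GENCODE, and whether reads were counted by strand is not given in the sources used here. Reads of these hosts and of their antisense partners therefore cannot be told apart. *SNHG5* also overlaps the pseudogene *PKMP3* and a protein-coding gene without a name on its own strand. *ZFAS1* likewise overlaps genes annotated as misc_RNA in GENCODE on its own strand, so the counts of both hosts are uncertain. Among the protein-coding partners, *TRNAU1AP* beside *SNHG12* had a log2FC of -0.14 and *ZNFX1* beside *ZFAS1* had 0.13, while *MCMDC2* beside *SNHG6* had 5 to 10 reads and *PRSS12* beside *SNHG8* had 0 to 6.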

How the data were processed

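RNA-seq was performed by the authors on an Ion Proton with total RNA. After removal of adaptors and low-quality reads, reads were aligned to hg38 per the article's methods (the submitters' processing notes list GRCh37), and the authors deposited RPKM values per gene. The aligner, annotation and handling of multiple hits are not given in the sources used here. The count test of the methods was replaced, since RPKM values are not counts. Totals and whole reads were recovered from the RPKM steps (whole within 0.001 reads for 24282 of 24289 genes above 0), and 95.2% to 96.8% of snoRNA values of known length were whole within 0.02 reads. RPKM was scaled by unweighted trimmed means of log ratios (30% of ratios, 5% of levels), and genes with RPKM of at least 1 in 2 libraries were tested (13885 of 40205) by limma 3.58.1 in R 4.3.3 on log2(scaled RPKM + 1), with a trended prior variance and Benjamini-Hochberg adjustment (FDR). The pseudocount understates changes of low genes. Checked on simulated data, the test found most changed genes but made false calls at a share above its nominal FDR. No simulated control library stood apart by gene length, and every planted change was beyond the log2FC threshold. The share found there therefore does not carry over to these data. The fits without 1 library assume that the lone library varies like the other group. Every host was named. In the other gene lists except the cell markers the 3 genes with the smallest p, other non-coding hosts with an unadjusted p under 0.05 and snoRNAs with at least 10 reads in every library were named. Of the cell markers, those used as identity checks and those with an unadjusted p under 0.05 were named, a choice made after their values were seen. The hosts and lists were chosen with earlier results of these data known. Alternatives covered scaling, filter, pseudocount, replicate block, prior, limma-voom, gene length and each library left out. Some genes are not reported here. Python 3.11.15 was used for the rest.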

Additional observations from a re-analysis of the deposited data

How the results depend on the processing

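Of 130 values for single hosts under 13 alternatives, 121 kept their direction. The 9 that reversed were *SNHG1* without NC 1 (0.037), *SNHG7* (0.15 unscaled, 0.026 corrected for gene length, 0.23 without NC 1, 0.20 without si-circZFR 1), *SNHG15* (0.018 unscaled, 0.20 corrected for gene length, 0.32 without si-circZFR 1) and *SNHG8* without si-circZFR 1 (0.10). With a library left out, *SNHG1* ran from -0.69 to 0.037, *SNHG7* from -0.28 to 0.23, *SNHG15* from -0.64 to 0.32 and *SNHG8* from -1.58 to 0.10. Without scaling, the median of all genes was 0.15 and that of the hosts -0.45. *SNHG16* had a log2FC from -1.30 to -0.99 and an FDR from 0.0347 to 0.228 by limma and of 0.0266 by limma-voom, and it passed in 3 of the 13 alternatives. The number of hosts that passed was 1 with a filter of 1 CPM (0.989% of all genes passed), 1 by limma-voom (2.06%) and from 0 to 4 with a library left out, where the 4 were found without NC 1 (7.17%). The median of the hosts was -0.20, and that of the ribosomal proteins -0.56, after the correction for gene length, and with a library left out they ran from -0.90 to -0.36 and from -1.17 to -0.50. The number of all genes that passed by limma (8) was 14 after the correction for gene length, 147 with a filter of 1 CPM, 286 by limma-voom, 2 with a pseudocount of 0.1, 0 without a filter (3632 genes at an unadjusted p under 0.05), 0 without the prior trend (2962), and 0 to 969 with a library left out. The cause of these shifts was not tested. With the replicate number as a block, 59 genes and no host passed. The labels tie no numbers to a shared batch, and the deviations of same-numbered libraries had a correlation of 0.0693 across genes. With 2 libraries a group and as few as 9 reads for *SNHG8*, depth and replication limit the smaller hosts and the snoRNAs.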
